A study of Mus musculus with 6 samples.

Results

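Classical cadherins of types I and II were followed in GFP+ cells sorted from the embryonic dorsal spinal cord, through 10 genes (*Cdh1*, *Cdh2*, *Cdh4*, *Cdh6*, *Cdh7*, *Cdh8*, *Cdh10*, *Cdh11*, *Cdh12* and *Cdh20*). They were chosen by their signals and stage differences on these same arrays. Each was taken as the transcript cluster, the set of probes of a locus, whose platform annotation names that gene alone, with the highest mean of 6 arrays if there were several. All 10 had exactly 1 such cluster, of 23332 clusters on the array. The cells came from mouse embryos carrying *Wnt1-cre* and the *Rosa26mTmG* reporter, and were sorted at E10.5, a day later at E11.5 and finally at E12.5. There were 2 arrays per stage, and all groups share this genotype. Cre under *Wnt1* control labels the dorsal neural tube and the neural crest together with their descendants, so the sort is a lineage and not a pure neuron class. The sources used here do not state if separate litters or pools were used for the 2 arrays of a stage. The errors given below therefore cover scatter between arrays only, possibly a technical one. They rest on variances moderated over all clusters, and so are not the scatter of a gene's own arrays.

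Classical cadherins are calcium-dependent adhesion receptors that bind like molecules on the neighbouring cell through the outermost of their extracellular repeats. Their cytoplasmic tail holds beta-catenin and p120-catenin, and alpha-catenin links the complex to actin. Type I members such as E- and N-cadherin mediate strong adhesion of epithelia and of the neural tube. Type II members are expressed in restricted combinations and are known for sorting neurons into groups in the spinal cord and brain, and several are found in neural crest cells.

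The values are log2 signals normalized by the authors. Array medians lay between 5.33 and 5.73, and replicate 1 of E10.5 was unlike the others, correlating with them at a mean r of 0.890 over clusters (0.948 to 0.955 for the rest). A detection limit was set from 844 clusters of chemosensory receptor genes, at the 95th percentile of their mean signals over the 6 arrays, 5.85. Taken array by array, the limit was 6.59, 6.17 and 6.55 on the replicate 1 arrays of E10.5, E11.5 and E12.5, and 5.37, 5.37 and 5.39 on the replicate 2 arrays. A signal is therefore harder to tell from background on the replicate 1 arrays. Of 12 measured markers of dorsal neurons 10 had a mean above the limit, among them *Lhx2* and *Lhx9* of commissural dI1 neurons, but so had 10 of 10 markers of neural progenitors, such as *Sox2* and *Nes*. In such bulk samples, fewer cells of a type and less RNA per cell cannot be told apart. Levels of different genes are not compared by name, because probes differ in brightness. Percentiles given below place a cluster among all signals of its array and carry the same limit.

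The measured signal of *Cdh6* was lower and that of *Cdh8* higher at each later stage, the latter from signals below the detection limit. The other members differed by less than 0.5 on the log2 scale between E10.5 and E12.5 as deposited, while *Cdh11*, *Cdh2* and *Cdh10* reached 0.60, 0.51 and 0.51 after centring each array, and *Cdh10* 0.52 under quantile normalization. The opposite course of these 2 genes was part of the reason for choosing the list, and so the values of all members are a description and carry no test. Among the 10 members, 4 had a mean above the detection limit (*Cdh2*, *Cdh4*, *Cdh6* and *Cdh11*), against 42.1% of all clusters. Below their own array's limit on all 6 arrays were *Cdh1*, *Cdh10*, *Cdh12* and *Cdh20*. Taking E12.5 minus E10.5 on the log2 scale, the members had a median of 0.33 and all clusters one of -0.10. The latter moved to -0.02 under quantile normalization and to 0.03 with array medians set equal. A difference above 0 was found for 7 members and for 38.4% of all clusters.

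**Figure D1:**
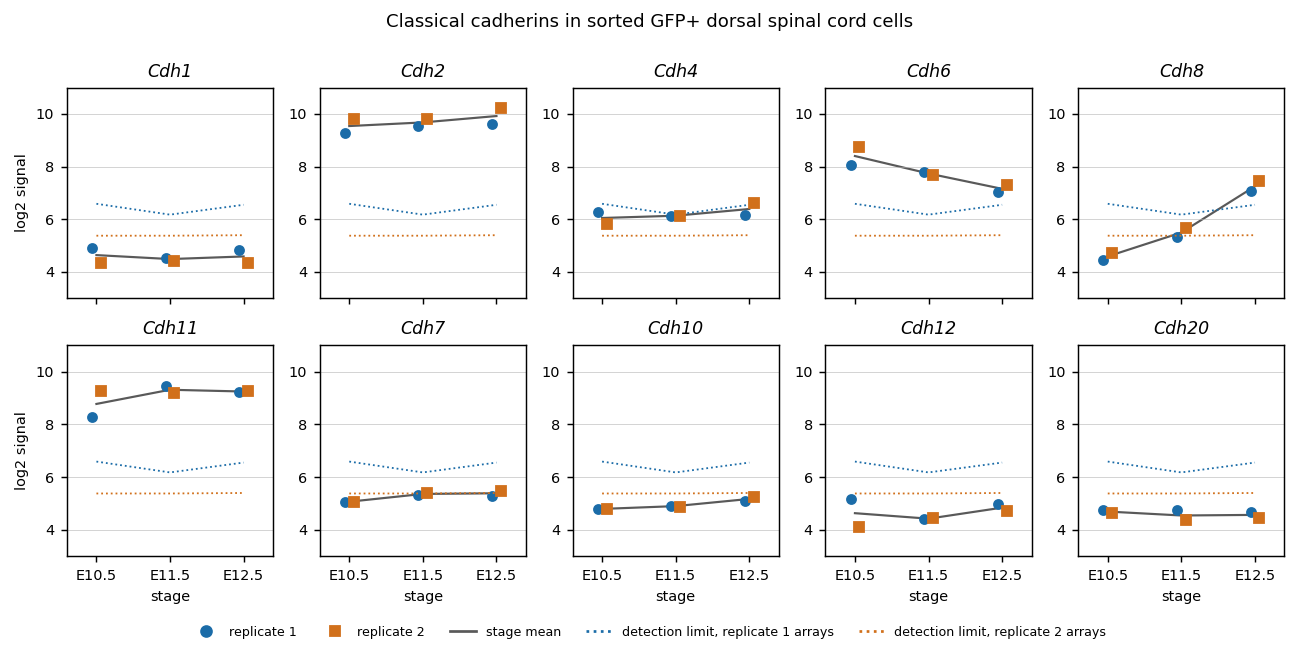
Log2 signal of the 10 classical cadherins (y axis) at the 3 stages (x axis), with points for the single arrays, a line through the stage means and dotted lines for the detection limit of each array. *Cdh8* crosses the limit between E10.5 and E12.5, *Cdh6* stays above it while its signal is lower at each later stage, and *Cdh1*, *Cdh10*, *Cdh12* and *Cdh20* lie below it throughout.

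*Cdh8*, a type II cadherin known from subsets of central and sensory neurons, was the member with the widest difference. Its log2 signals were 4.45 and 4.73 on the E10.5 arrays, 5.32 and 5.67 on the E11.5 arrays, and 7.06 and 7.44 on the E12.5 arrays. The stages did not overlap, and both arrays of each stage lay above both arrays of the stage before. Both E10.5 signals were below the limit of their arrays, as was that of E11.5 replicate 1, so that the level at E10.5 is known only as a bound. The measured signals of E12.5 and E10.5 differed by 2.66 on the log2 scale (standard error 0.32), a value read against background at E10.5. Set against the E10.5 array limits (mean 5.98) in place of the measured mean of 4.59, the E12.5 mean of 7.25 was 2.41-fold higher. This bound is rough, since the limits were 6.59 and 5.37 on the 2 arrays and a limit is a percentile of background signals. Ranked among all clusters of the same array, *Cdh8* stood at percentiles 78.7 and 81.6 on the E12.5 arrays, where both signals were above the limit.

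*Cdh6*, a type II cadherin of the dorsal neural tube, the early neural crest and some motor neurons, went the other way. Its log2 signals were 8.07 and 8.73 on the E10.5 arrays, 7.80 and 7.68 on the E11.5 arrays, and 7.03 and 7.28 on the E12.5 arrays. Here too the stages did not overlap, and all 6 arrays were above their limits. Its log2 difference, E12.5 minus E10.5, was -1.25 (standard error 0.34), with -0.66 from E10.5 to E11.5 and -0.58 from E11.5 to E12.5. It was the 268th lowest of all clusters. It was -0.91 without the E10.5 replicate 2 array, on which *Cdh6* was highest, and -1.58 without the E10.5 replicate 1 array. In ranks *Cdh6* stood at percentiles 91.3 and 92.3 on the E10.5 arrays, 86.7 and 84.0 on the E11.5 arrays, and 78.1 and 79.8 on the E12.5 arrays. After quantile normalization the differences were -1.32 for *Cdh6* and 2.74 for *Cdh8*.

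Some markers of other cells were also lower at E12.5. Of the 5 measured markers of neural crest and Schwann cell precursors, 4 had a difference below 0 and 1 above it, where 38.4% of all clusters were above 0, and 0 passed even unadjusted. Their median of -0.37 was 0.02 without the E10.5 replicate 1 array and -0.55 without E10.5 replicate 2. The mean log2 signal of the list was 5.51 and 5.03 on the E10.5 arrays, 5.08 and 4.72 on the E11.5 arrays, and 5.10 and 4.80 on the E12.5 arrays. Only *Sox10*, the defining factor of crest-derived glia, had a mean above the detection limit. Its signals were 6.78 and 6.19 at E10.5 and 6.64 and 5.80 at E12.5. Markers of mesenchyme, with 2 of 10 above the limit, had mean log2 signals of 5.30 and 5.07 at E10.5 and 4.83 and 4.59 at E12.5. Of these 10 markers 2 had a difference above 0 and 8 below it, with a median of -0.27. The median was 0.03 without the E10.5 replicate 1 array and -0.63 without E10.5 replicate 2. *Postn*, a matrix protein gene, had the lowest difference of this list, -2.92. It had 8.08 on the E10.5 replicate 2 array, where *Cdh6* was also highest, and between 3.60 and 5.33 on the others. The muscle marker *Mstn*, which encodes myostatin, had 7.75 on that array, 6.07 on the other E10.5 array and at most 5.10 later. *Pdgfra* and *Foxc2* were also higher on that array than on E10.5 replicate 1. The remaining mesenchyme markers were lower on it, and so were the muscle markers *Myod1*, *Myog* and *Myf5*. All 4 measured muscle markers had a difference below 0, and 0 of them had a mean above the detection limit. *Cx3cr1*, a microglia marker, had 8.06 and 6.19 at E10.5 and 6.18 and 6.07 at E12.5. Its difference was -0.07 without the E10.5 replicate 1 array. The other measured microglia markers, *Csf1r*, *Ptprc* and *Aif1*, were below the limit on every array, with differences of -0.10, -0.05 and -0.13. Of the 10 progenitor markers 7 had a difference below 0 and 3 above it, with a median of -0.35, and the mean log2 signal of the list was 8.17 and 8.35 at E10.5 and 7.95 and 8.02 at E12.5. The extremes were *Olig3*, a dorsal progenitor factor, with 9.52 and 9.81 at E10.5 and 8.36 and 8.67 at E12.5, and *Pax3*, another dorsal factor, with 8.17 and 8.73 and then 8.75 and 9.13. Of the 12 measured markers of dorsal neurons 6 had a difference above 0 and 6 below it. Their mean log2 signal was 7.38 and 7.13 at E10.5 and 7.45 and 7.46 at E12.5. At the extremes were *Pax2*, with 7.17 and 6.19 and then 7.90 and 8.12, and *Lhx9*, with 8.56 and 8.36 and then 7.82 and 7.66. *Elavl3*, a neuronal RNA-binding protein gene, had 7.56 and 7.43 and then 8.36 and 8.41. The part of these cells in the values of *Cdh6* and *Cdh8* was not tested.

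The promoters of these 2 genes are shown because their signals took opposite courses. The sequences are the 250 bases before the transcription start in RefSeq's annotation of GRCm38.p6, a later build than the mm9 assembly of the arrays. They are written 5′ to 3′ on the gene's own strand, with E-boxes in capitals. For both genes RefSeq's gene record reaches further upstream than this start, so that other starts exist. Cdh6 lies at chr15:13173676-13173925 and Cdh8 at chr8:99416472-99416721, both on the minus strand.
Cdh6: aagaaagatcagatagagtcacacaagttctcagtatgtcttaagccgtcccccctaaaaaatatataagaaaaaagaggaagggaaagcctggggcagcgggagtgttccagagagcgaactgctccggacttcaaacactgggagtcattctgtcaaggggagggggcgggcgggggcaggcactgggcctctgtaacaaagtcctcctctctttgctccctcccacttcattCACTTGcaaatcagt
Cdh8: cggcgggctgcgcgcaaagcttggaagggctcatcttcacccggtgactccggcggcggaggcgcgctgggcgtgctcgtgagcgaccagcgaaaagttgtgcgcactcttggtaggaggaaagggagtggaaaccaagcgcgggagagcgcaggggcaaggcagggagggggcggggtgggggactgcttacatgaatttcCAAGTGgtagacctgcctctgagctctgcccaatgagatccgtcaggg

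The E-box, CANNTG, is the letter pattern to which bHLH factors and the Snail and Zeb repressors of cadherin genes bind. It was present once in each window, 15 bases before the start in *Cdh6* and 48 bases before it in *Cdh8*. Of 32851 windows of this kind in the annotation 66.2% hold it. The variant CACCTG (or CAGGTG on the other strand), which Snail and Zeb factors prefer, was in neither, and 17.2% of all windows hold it. Windows were at hand for 6 of the 10 members, 8 windows in all because *Cdh7* has 3 starts, and CACCTG was found in 2 of the *Cdh7* windows alone. The GC-box core GGGCGG, searched on both strands, was found 2 times in *Cdh6* and 1 time in *Cdh8* (32.7% of all windows), and CCAAT in *Cdh8* but not in *Cdh6* (33.8%). TATAAA was in none of the 8 windows, against 12.4% of all. The *Cdh8* window was richer in G and C, at 64.4%, than that of *Cdh6*, at 51.2%, and the median of all windows was 52.4%. The motif searches are independent of the array values, and a match is a run of letters and not a bound site.

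Among the type I members, *Cdh2*, which encodes N-cadherin and holds neural progenitors together at the ventricle, was above its limit on all 6 arrays. Its log2 signals were 9.29 and 9.79 on the E10.5 arrays, 9.55 and 9.80 on the E11.5 arrays, and 9.62 and 10.22 on the E12.5 arrays. The E10.5 and E12.5 arrays overlapped, and the difference was 0.38 (standard error 0.36). It was between 0.08 and 0.68 when single arrays were left out, the lowest without E12.5 replicate 2 and 0.13 without E10.5 replicate 1. Between same-numbered arrays it was 0.33 for replicate 1 and 0.43 for replicate 2, but what a number shares is not stated. *Cdh2* stood between percentiles 97.0 and 98.4 on all arrays. *Cdh4*, which encodes R-cadherin of the nervous system and retina, had 6.26 and 5.84 on the E10.5 arrays, 6.13 on both E11.5 arrays, and 6.15 and 6.63 on the E12.5 arrays. Its stages overlapped (difference 0.34, standard error 0.33), and the difference was 0.13 without E10.5 replicate 2 and 0.10 without E12.5 replicate 2. It was above the limit on the replicate 2 arrays but on none of the replicate 1 arrays. *Cdh1*, which encodes the E-cadherin of epithelia, lay between 4.34 and 4.92 and below the limit on all arrays. Its difference was -0.05 (standard error 0.34) and turned to 0.10 after quantile normalization. It was 0.23 without the E10.5 replicate 1 array and -0.33 without E10.5 replicate 2. None of the 8 measured epithelium markers, among them *Epcam*, had a mean above the detection limit.

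*Cdh11*, a type II cadherin of mesenchyme and of migrating neural crest cells that is also found in the neural tube, was above its limit on all arrays. Its log2 signals were 8.27 and 9.28 on the E10.5 arrays, 9.44 and 9.18 on the E11.5 arrays, and 9.24 and 9.25 on the E12.5 arrays. The E10.5 replicate 1 array, the one unlike the others, was low, and the other 5 arrays lay between 9.18 and 9.44. E12.5 minus E10.5 came to 0.47 (standard error 0.39) with both E10.5 arrays, -0.03 without that array and 0.98 without the other, so that this value rested on 1 array.

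The other type II members were near background. *Cdh7*, which in the chick marks migrating neural crest cells, had 5.06 and 5.07 on the E10.5 arrays, 5.33 and 5.38 on the E11.5 arrays, and 5.28 and 5.49 on the E12.5 arrays. The E10.5 arrays were below all later arrays, and E12.5 minus E10.5 came to 0.32 (standard error 0.29). It passed the limit on the replicate 2 arrays of E11.5 and E12.5 only. *Cdh10*, a cadherin of brain neurons, had 4.79 on both E10.5 arrays, 4.92 and 4.87 on the E11.5 arrays, and 5.08 and 5.26 on the E12.5 arrays, so that its stages followed each other without overlap at signals below the limit. Its difference was 0.38 (standard error 0.28). *Cdh12*, another brain cadherin, lay between 4.10 and 5.15 with both extremes at E10.5, and its difference of 0.21 (standard error 0.40) was 0.73 without the E10.5 replicate 1 array and -0.31 without the E10.5 replicate 2 array. *Cdh20*, which is known from motor neuron pools and the brain, lay between 4.35 and 4.75 (difference -0.13, standard error 0.30), and after quantile normalization its difference was 0.02.

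Across all clusters, the moderated test of limma called 0 of 23332 clusters at a Benjamini-Hochberg adjusted p under 0.05 in each of the 3 comparisons of stages (0%), and 0 of the 10 members. Without the E10.5 replicate 2 array, where E10.5 rests on the array unlike the others, 325 clusters and 1 of the members passed. At an unadjusted p under 0.05 between E12.5 and E10.5, 3.98% of all clusters passed, 1.76% higher and 2.22% lower, and among the members *Cdh8* passed as higher and *Cdh6* as lower. From E10.5 to E11.5 the same test passed 1.99% of clusters (0.831% higher, 1.16% lower), and from E11.5 to E12.5 it passed 0.909% (0.373% higher, 0.536% lower). The E12.5 arrays lay above both E10.5 arrays for 3 members (*Cdh7*, *Cdh8* and *Cdh10*), against 9.35% of all clusters, and below them for *Cdh6*, against 14.0%. All 3 stages followed each other without overlap upward for *Cdh8* and *Cdh10* and downward for *Cdh6*, against 1.57% of clusters in either direction. These contrasts were known when the members were listed, and nothing is drawn from the counts. With 2 arrays against 2, the smallest p of an exact permutation test is 0.333.

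Cadherin genes often neighbour each other in the genome, which the choice of members did not use. In the order of protein-coding genes of GRCm38, *Cdh8* and *Cdh11* are next to each other on chromosome 8 and followed by *Cdh5*, and *Cdh10* and *Cdh12* are next to each other on chromosome 15, where *Cdh9* lies between *Cdh6* and *Cdh10*. The neighbours *Cdh8* and *Cdh11* differed in course, with measured differences of 2.66 and 0.47. On chromosome 15 the differences were -1.25 for *Cdh6*, 0.38 for *Cdh10* and 0.21 for *Cdh12*. The authors' own annotation adds *Ppp4r1* to the cluster of *Cdh8*, which the platform's table does not. RefSeq places *Ppp4r1* on another chromosome than *Cdh8*, and probe sequences were not used here.

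Clusters most like *Cdh6* and *Cdh8* were looked up by Pearson correlation over the 6 arrays, among clusters that name 1 gene, have a mean above the detection limit and vary with an SD of at least 0.5. For *Cdh8*, with 1139 candidates, these were *Pid1* (r = 0.990), *Ncam2* (0.986), *Gria3* (0.985), *Usp29* (0.982) and *Nrxn3* (0.979). *Ncam2* encodes a neural cell adhesion molecule, *Gria3* a glutamate receptor subunit and *Nrxn3* a presynaptic adhesion receptor. *Nrxn3* had log2 signals of 6.43 and 6.17 on the E10.5 arrays, 7.10 and 7.17 on the E11.5 arrays, and 8.14 and 8.77 on the E12.5 arrays. For *Cdh6*, with 1138 candidates, they were *Utrn* (r = 0.968), *Nek7* (0.961), *Adamts1* (0.961), *Rspo3* (0.956) and *Mob1a* (0.945). *Utrn* encodes a relative of dystrophin, *Adamts1* a secreted metalloprotease and *Rspo3* an activator of Wnt signaling made in the roof plate. *Rspo3* had 7.21 and 7.37 on the E10.5 arrays, 6.63 and 6.69 on the E11.5 arrays, and 5.78 and 6.10 on the E12.5 arrays. The 6 points of each correlation are the same arrays, which also share their stage and scaling, and so the values only rank likeness.

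**Figure D2:**
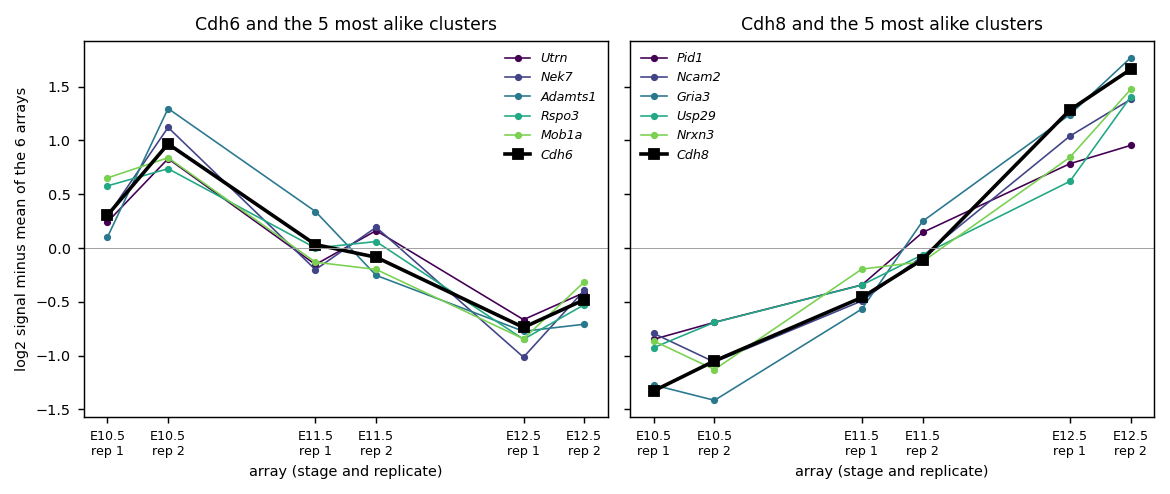
Log2 signal minus the mean of the 6 arrays (y axis) for *Cdh6* (left) and *Cdh8* (right, thick black lines) and the 5 clusters most like each, by array (x axis). Lines only join the points of a gene, and the correlations run from 0.945 to 0.968 for *Cdh6* and from 0.979 to 0.990 for *Cdh8*.

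The catenins, which tie classical cadherins to actin, were all measured, 9 of 9, and 7 had a mean above the detection limit. No catenin passed limma's test after adjustment over all clusters (smallest adjusted p = 0.991), and 1 of 9 passed unadjusted, against 3.98% of all clusters. With the replicate number as a block in the fit 2 of 9 passed unadjusted, beside 2098 of 23332 clusters (928 without the block). The median of their differences was 0.19, against -0.10 over all clusters. The gene that passed unadjusted without the block was *Ctnna2*, which encodes the alpha-catenin of neurons. It had 6.99 and 6.95 on the E10.5 arrays, 7.36 and 7.50 on the E11.5 arrays, and 7.48 and 8.10 on the E12.5 arrays (difference 0.82, standard error 0.33). The E12.5 arrays lay above the E10.5 arrays for 4 of 9 catenins, against 9.35% of clusters. These were *Ctnna2*, *Ctnnd2*, the neural delta-catenin (0.48), *Arvcf*, a p120 relative (0.19), and *Jup*, plakoglobin (0.13). The mean of *Jup* was below the detection limit. Without the E10.5 replicate 2 array the 4 differences were 0.80, 0.15, 0.07 and 0.08.

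*Ctnnb1*, which encodes beta-catenin, had the widest difference of the list, 1.01 (standard error 0.57), but its stages overlapped. It had 7.90 and 9.62 on the E10.5 arrays, 9.52 and 9.83 on the E11.5 arrays, and 9.46 and 10.09 on the E12.5 arrays. The E10.5 replicate 1 array was low, and without it the difference was 0.15. *Ctnna1*, the alpha-catenin of epithelia, was low on the same array, at 6.54 against 7.30 to 8.30 on the others, and its difference of 0.14 (standard error 0.58) was -0.74 without it. The remaining catenins had differences of 0.24 for *Ctnnd1* (p120-catenin), -0.05 for *Ctnna3* and -0.20 for *Pkp4*. Without the E10.5 replicate 1 array that of *Ctnnd1* was -0.01, and that of *Ctnna3*, whose mean was below the detection limit, was 0.31. Without E10.5 replicate 2 they were 0.50 and -0.42. *Ctnna3* had 0.06 after quantile normalization, and *Pkp4* had 0.25 without the E10.5 replicate 2 array.

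**Figure D3:**
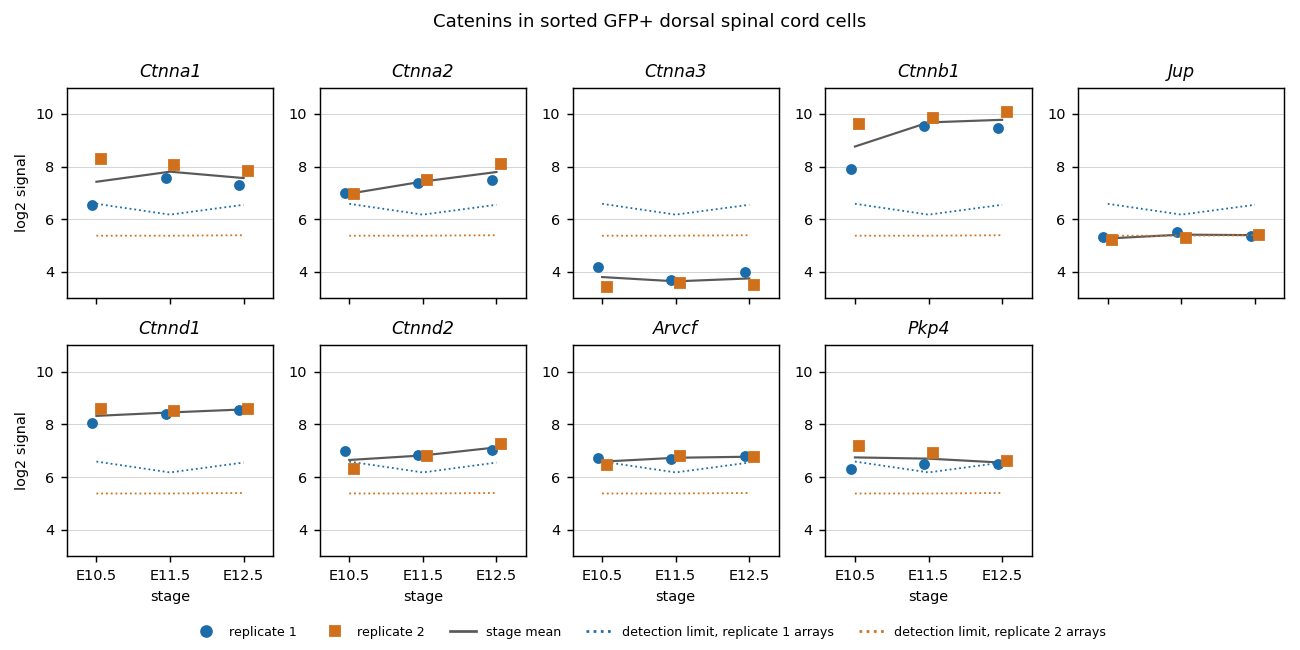
Log2 signal of the 9 catenins (y axis) at the 3 stages (x axis), drawn as for the cadherins. *Ctnna2* is higher on both E12.5 arrays than on both E10.5 arrays, and *Ctnnb1* and *Ctnna1* have a low point on the E10.5 replicate 1 array.

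Other adhesion genes were read from lists of the same fit. Over 6 lists with 60 genes, catenins included, 42 genes were measured. Of these 0 passed limma's test after adjustment (smallest adjusted p = 0.991), and 1 passed unadjusted (2.38%, against 3.98% of all clusters). With the replicate number as a block in the fit 3 passed unadjusted, beside 2098 of 23332 clusters (928 without the block). Without the E10.5 replicate 2 array 7 passed unadjusted, beside 5174 of all clusters. Of the other classical cadherins 4 of 8 were measured (*Cdh3*, *Cdh5*, *Cdh15* and *Cdh22*), and 0 had a mean above the detection limit. Their differences were -0.06 for *Cdh3*, P-cadherin, -0.23 for *Cdh5*, the cadherin of endothelium, -0.26 for *Cdh15*, M-cadherin of muscle, and -0.37 for *Cdh22*. All 4 were above 0 without the E10.5 replicate 1 array. Without E10.5 replicate 2 they were -0.35, -0.57, -0.79 and -0.79. Limits were higher on the replicate 1 arrays, so the change of sign is not separated from the replicate number. *Cdh3* was also above 0 after quantile normalization and after centring. Of the atypical cadherins 6 of 13 were measured. *Cdh13*, whose product is held by a lipid anchor and lacks the catenin-binding tail, had 6.06 and 5.54 on the E10.5 arrays, 5.81 and 6.23 on the E11.5 arrays, and 6.12 and 6.94 on the E12.5 arrays (difference 0.73, standard error 0.40). *Celsr1* and *Celsr3*, of planar polarity and axon tract formation, had differences of -0.27 and -0.01, and the latter was 0.13 after centring. That of *Celsr3* was 0.24 without the E10.5 replicate 1 array and -0.26 without E10.5 replicate 2.

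Junction partners and actin linkers, 10 of 12 measured, had a median difference of -0.29. The E12.5 arrays lay below the E10.5 arrays for 4 of them, against 14.0% of clusters, among them *Tjp1*, a junction scaffold (-0.51, standard error 0.36), *Vcl*, vinculin (-0.45, standard error 0.34), and *Nectin3*, an adhesion molecule that works beside cadherins (-0.44, standard error 0.31). Without the E10.5 replicate 2 array these were -0.22, -0.24 and -0.23. *Nectin3* had 9.41 and 9.83 at E10.5 and 9.10 and 9.26 at E12.5. Of the repressors of cadherin genes 7 of 8 were measured. *Snai1* and *Snai2* had means below the detection limit, while *Zeb1* (0.28, standard error 0.38), *Zeb2* (0.09, standard error 0.33) and *Tcf3* (-0.34, standard error 0.30) had means above it, and *Zeb2* was at -0.02 after quantile normalization. Without the E10.5 replicate 1 array *Zeb1* was at -0.04 and *Zeb2* at -0.20. Of the proteases that cut cadherins 6 of 10 were measured, with a median difference of 0.03. *Adam10*, which sheds the ectodomain of N-cadherin, had 7.28 and 8.56 at E10.5 and 8.44 and 9.03 at E12.5, and its difference of 0.81 (standard error 0.47) was 0.18 without the low E10.5 replicate 1 array. *Ncstn*, a subunit of gamma-secretase, had 0.62 (standard error 0.50) and -0.05 without that array, and *Adam9* had 0.18 (standard error 0.28).

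**Figure D4:**
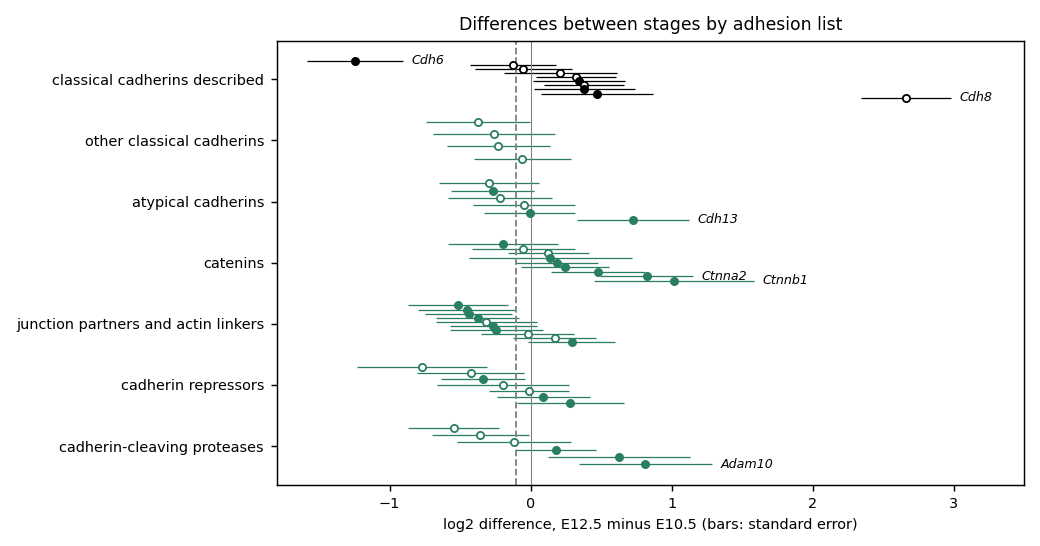
Log2 signal at E12.5 minus that at E10.5 (x axis) for each measured gene by list (y axis), with bars for the standard error of the limma fit, filled points for means above the detection limit and open points for means below it. The dashed line is the median of all clusters, -0.10, and *Cdh8* at 2.66 and *Cdh6* at -1.25 were part of the choice of the members, and the 6 other adhesion lists drawn here run from -0.77 to 1.01.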

How the data were processed

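RNA of FACS-sorted GFP+ cells was hybridised to GeneChip Mouse Exon 1.0 ST arrays, 2 for each of 3 stages. The deposited values are log2 signals per transcript cluster, which the authors normalized and summarised, per the submitters' processing notes with oligo (version not given in the sources used here) on mm9. They were used as deposited. Precision is limited by how few arrays there are. Of 23332 clusters the platform's table gives 1 gene symbol to 14996, several to 1019 and none to 7317. The stage comparisons used limma 3.58.1 under R 4.3.3 (a mean per stage, moderated variances, Benjamini-Hochberg adjustment over all clusters, threshold 0.05), and the fit was tested on simulated data. Figures used Python 3.11.15 with pandas 2.3.3 and matplotlib 3.10.9. Members and lists were chosen with earlier results of these data known. Named were all members, all other measured classical cadherins and catenins, the 3 genes above the detection limit with the widest difference in each other adhesion list, markers needed beside a result, and the 5 clusters most like *Cdh6* and *Cdh8*. *Snai1* and *Snai2* were named after their values were seen. Alternatives were a replicate block, other moderation, normalization and cluster sets, the compared stages alone, unadjusted p-values and leaving out each array.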

Additional observations from a re-analysis of the deposited data

How the results depend on the processing

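The count of clusters called between E12.5 and E10.5 was 0 in limma and under each setting with all arrays, and it was 928 unadjusted. Leaving out single arrays gave 0 to 325, and the 325 came without the E10.5 replicate 2 array, where the only E10.5 array is the one unlike the others, and 1 member passed there. A stage left with 1 array was assumed to vary like the other stages. The unadjusted count was 533 to 5174 when single arrays were left out, the highest without E10.5 replicate 2. Of the adhesion genes 0 passed under each setting after adjustment, and unadjusted 1 passed as deposited, 3 after quantile normalization and 0 to 7 without single arrays, the 7 again without E10.5 replicate 2. Of the members 7 had a difference above 0 (6 to 8 without single arrays, 9 after quantile normalization or centring, and 3 of the 4 above the detection limit when only such clusters were fitted), and their median stayed within the spread between arrays. Of 134 values of single members under other settings, 120 moved by no more than 1 SD and 14 by more. Many of the 120 could not move. A block, other moderation, other cluster sets, the compared stages alone or leaving out an E11.5 array leave a member's difference unchanged. The 14 came from normalization or from leaving out an E10.5 or E12.5 array, so the share of 120 is not a measure of stability. Of the clusters that passed unadjusted 44.3% were higher, against 56.5% after quantile normalization and 58.6% after centring on the median. The labels give the same replicate numbers at each stage but not what they share. Deviations of same-numbered arrays correlated between stages (r = 0.455 to 0.484). Leaving out 1 E10.5 array compares 1 replicate number with both of E12.5, which can itself shift a difference. With the number as a replicate block the adjusted count was 0 and the unadjusted count 2098 (3 of the adhesion genes). The differences of the members were the same by design, because each stage has 1 array of each number. Each member had 1 cluster, so a mean over several could not be tried. Signals near the detection limit bound what can be said of *Cdh8* at E10.5 and of *Cdh1*, *Cdh7*, *Cdh10*, *Cdh12* and *Cdh20*.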
